A study of Homo sapiens with 8 samples.

Results

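The genes described here are BHLHE40, its paralog BHLHE41 and 8 core genes of the circadian clock, CLOCK, PER1, PER2, PER3, CRY1, CRY2, NR1D1 and NR1D2. They were taken by gene symbol from a table of read counts, 10 of 58735 genes, and the set was chosen by the lower counts of BHLHE40 in the libraries with SPOCK1. All 10 were expressed highly enough to be among the 15790 genes compared between the groups. RNA was sequenced from SW480, a human colorectal adenocarcinoma cell line, in 4 libraries with a vector control and 4 with stable overexpression of FLAG-tagged SPOCK1, a secreted proteoglycan of the extracellular matrix. Per the labels' protocols, cells were infected with lentivirus and selected in puromycin until SPOCK1 protein was seen on a Western blot. Whether a group's libraries stem from separate cultures is not said in the labels, so errors and p-values hold for the spread among these libraries, possibly a technical one. A group may be 1 selected population, and whatever else set the 2 populations apart cannot then be told apart from SPOCK1. The sources used here give neither the hour of harvest nor any synchronisation of the cultures.

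The circadian clock of mammalian cells is a loop of transcription and repression. CLOCK pairs with BMAL1 (gene symbol ARNTL) and activates genes that carry E-boxes, among them the PER and CRY genes, whose proteins gather, enter the nucleus and repress CLOCK and BMAL1. NR1D1 and NR1D2 (REV-ERBα and REV-ERBβ) are nuclear receptors that repress ARNTL from a second loop, against activating ROR receptors. BHLHE40 and BHLHE41 (DEC1 and DEC2) bind E-boxes themselves and repress them, and BHLHE40 is also known to respond to low oxygen, TGF-β and other stimuli. In intestinal epithelium the clock is known for daily rhythms of proliferation and metabolism.

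Because E-boxes are the element through which CLOCK, BMAL1, BHLHE40 and BHLHE41 act, promoter windows of the 10 genes were searched for them. RefSeq windows of 300 bases (GRCh38.p14), 250 before and 50 after each annotated start, were at hand for all 10 genes, 14 windows in all. On both strands, 6 motifs were searched: the E-box CACGTG, its variant CACGTT (called E'-box here), the receptor core AGGTCA, the D-box written as TTATGTAA or TTACGTAA, and the cyclic AMP response element TGACGTCA. An E-box was found in 4 of the 10 genes, BHLHE40, BHLHE41, PER1 and NR1D2, against 8.77% of 27305 genes and 7.26% of 35116 windows in the RefSeq table. E'-boxes were found in CLOCK, CRY1, CRY2, NR1D1 and PER2, 5 of 10 against 6.44% of genes. D-boxes lay in NR1D2 and PER3 (TTATGTAA, 1.13% of genes) and in PER2 (TTACGTAA, 0.146% of genes). The AGGTCA core lay in CRY2 and PER1, and 16.5% of genes had it. TGACGTCA was found in 0 of the 10 and in 2.25% of genes. A match is a description of the letters and not evidence of binding. The 30-base stretches that follow hold the E-boxes of the E-box genes, and the E'-box and D-box of NR1D1 and PER3, the remaining genes whose levels did not overlap between the groups. Each runs 5′ to 3′ on the strand of its gene, with the motif in capitals.
BHLHE40 E-box: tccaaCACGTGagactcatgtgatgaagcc
BHLHE41 E-box: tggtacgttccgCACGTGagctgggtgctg
PER1 E-box: agcacccaggtcCACGTGcgcccgtgtgtg
NR1D2 distal E-box: ggcgggcggggaCACGTGaggccgctcggc
NR1D2 proximal E-box: gggccgcagggaCACGTGggggcgggggcg
NR1D1 E'-box: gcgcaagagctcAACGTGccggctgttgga
PER3 D-box: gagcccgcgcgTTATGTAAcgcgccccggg

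The BHLHE40 stretch is chr3:4979187-4979216 on the plus strand, and its E-box begins 245 bases before the RefSeq start. It falls inside an exon of the longer BHLHE40 model of GENCODE release 29. The BHLHE41 stretch is chr12:26125068-26125097 on the minus strand, also in an exon of the GENCODE model, with the E-box 48 bases before the RefSeq start. The PER1 stretch, chr17:8152560-8152589 on the minus strand, is intronic in the GENCODE model and its E-box begins 173 bases before the start. The NR1D2 stretches, chr3:23945954-23945983 and chr3:23946004-23946033 on the plus strand, are intronic in NR1D2, with E-boxes 155 and 105 bases before the second of 2 RefSeq starts. The NR1D1 stretch is chr17:40100740-40100769 on the minus strand, outside any GENCODE gene. It reads AACGTG, the reverse complement of the E'-box, 168 bases before the start. The PER3 stretch is chr1:7784103-7784132 on the plus strand, outside any GENCODE gene, with the D-box 177 bases before the first of 2 starts.

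**Figure D1:**
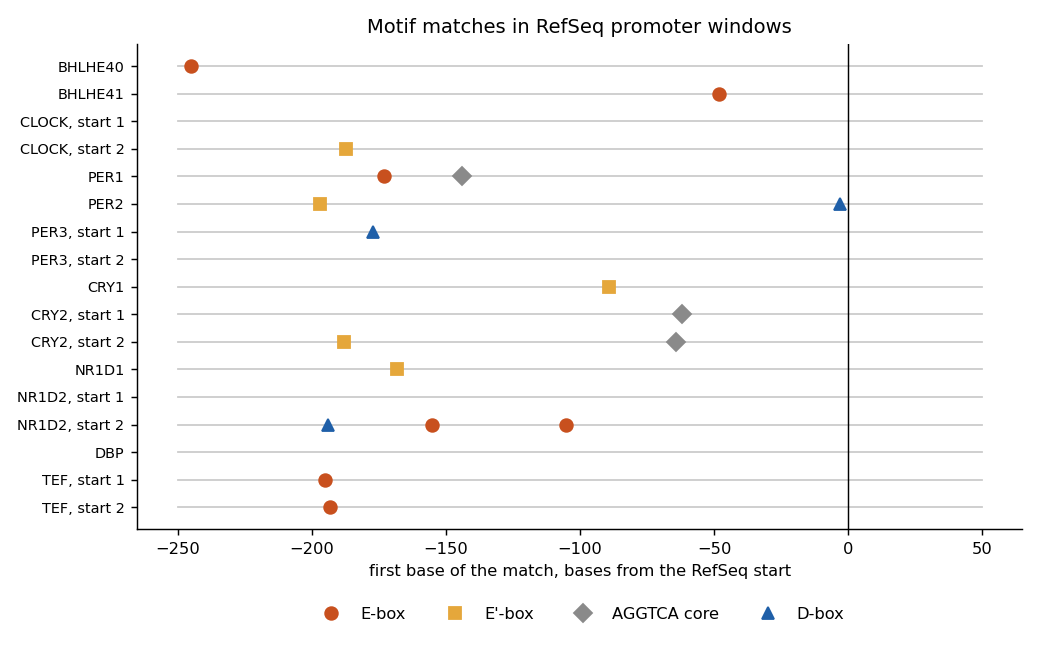
Motif matches in RefSeq promoter windows of the 10 genes and of the clock output genes DBP and TEF, with 1 line per annotated start; the horizontal axis gives the first base of each match in bases from that start. E-boxes are seen in BHLHE40, BHLHE41, PER1, NR1D2 and both starts of TEF, and no marker lies on the DBP line.

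Libraries held 35643585 to 42812951 counts. SPOCK1 itself had 0 to 6 counts in the control libraries and 6719 to 9712 in the SPOCK1 libraries, as labelled. All 7 epithelial markers looked up were expressed, EPCAM, KRT8 and CDX2 at 218.6 ± 22.5, 8286.8 ± 896.0 and 104.3 ± 8.36 counts per 1000000 counts (CPM; SD, n = 4) in controls. With SPOCK1 they had 219.7 ± 29.2, 8812.2 ± 429.3 and 93.2 ± 10.3 CPM. KRT18 went from 4518 ± 384.2 to 4718.6 ± 215.9 CPM and KRT19 from 1336.2 ± 136.7 to 1478.2 ± 61.6 CPM. All of these overlapped between the groups. Of the 7, only CDH1 (E-cadherin) was called, falling from 17.8 ± 1.29 to 11.2 ± 1.21 CPM with SPOCK1 (edgeR, adjusted p = 0.00537). VIL1 (villin) had 78.1 ± 3.43 and 64.9 ± 7.68 CPM (edgeR, adjusted p = 0.197). It was lower without overlap, as were 4.80% of all tested genes, and shares 44% of its exonic bases with USP37. The 12 markers of fibroblasts, immune cells and endothelium together had 87 to 150 counts in a control library and 76 to 152 in a SPOCK1 library. DCN, LUM and CDH5 were at 0 in all libraries, while COL1A1 (119 and 95 counts in all controls and all SPOCK1 libraries), PDGFRB (118 and 131) and VWF (155 and 156) were expressed highly enough to test and did not pass. Ribosomal RNA took 0.696% to 0.738% of counts in controls and 0.56% to 0.67% in SPOCK1 libraries. The part of these markers and of ribosomal RNA in the differences described here was not tested. The difference between GC-rich and GC-poor genes (the highest against the lowest of 5 equal groups by GC content, log2 scale) was -0.13 and -0.17 in control libraries 1 and 3 against 0.21 and 0.26 in control libraries 2 and 4. In SPOCK1 libraries 1 to 4 it was -0.27, 0.03, -0.19 and 0.26.

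BHLHE40 was the most abundant of the 10 transcripts per length, and the PER2, PER3 and BHLHE41 transcripts were the scarcest. In CPM per kilobase of exon (RPKM), control libraries gave BHLHE40 21.6 ± 0.72 (SD, n = 4), above 85.9% of the genes tested. NR1D1 followed at 11.5 ± 1.83 RPKM and NR1D2 at 6.52 ± 0.879 RPKM. PER1, CRY1 and CRY2 came next at 3.62 ± 0.294, 3.07 ± 0.355 and 2.56 ± 0.255 RPKM. The control ranges of PER1 (3.31 to 3.94) and CRY2 (2.23 to 2.83) did not overlap. CLOCK had 1.92 ± 0.241 RPKM. BHLHE41, PER3 and PER2 stood at 1.04 ± 0.221, 0.980 ± 0.142 and 0.870 ± 0.140 RPKM, with 31%, 29.9% and 28% of tested genes below them. Over the 4 control libraries 5 of the 9 neighbouring steps in this order were free of overlap. The overlapping neighbours were PER1 with CRY1, CRY1 with CRY2, BHLHE41 with PER3 and PER3 with PER2, so those pairs did not differ beyond their spread. In SPOCK1 libraries the first 3 places were held by the same genes, while PER1 stood below CRY1, at 2.70 ± 0.538 against 3.29 ± 0.342 RPKM, and PER3 took the last place at 0.657 ± 0.095 RPKM.

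**Figure D2:**
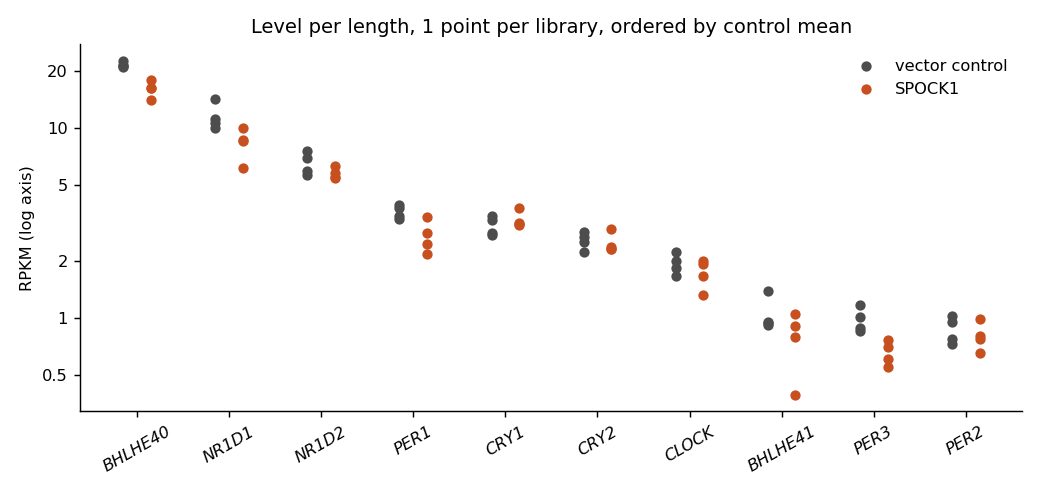
Level per length of each gene in RPKM on a log axis, with 1 point per library, grey for vector control and orange for SPOCK1. BHLHE40 lies highest, at 21.1 to 22.7 in controls, and BHLHE41, PER3 and PER2 lie near 1.

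The comparison of SPOCK1 libraries with controls chose this set through BHLHE40, so differences of the 10 genes are given as descriptions with the standard error (SE) of the fit and without p-values. BHLHE40 (ENSG00000134107, chromosome 3, 4979116 to 4985323), the E-box repressor DEC1, had 86.9, 82.7, 80.9 and 81.3 CPM in control libraries 1 to 4 and 54.3, 62.2, 62.2 and 68.7 CPM in SPOCK1 libraries 1 to 4. The controls lay within a narrow band, and every SPOCK1 library was below all of them. The means were 83.0 ± 2.76 and 61.9 ± 5.92 CPM (SD, n = 4 each), and the log2 fold change was -0.42 ± 0.08 (SE). In bulk RNA a lower level in all cells cannot be told apart from fewer cells with the transcript. The antisense gene BHLHE40-AS1 shares 4 exonic bases with BHLHE40 and had 55 counts in all controls and 42 in all SPOCK1 libraries.

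BHLHE41 (chromosome 12, 26120026 to 26125127), which encodes the close relative DEC2, was far scarcer per length. It had 3.61, 5.43, 3.72 and 3.73 CPM in controls 1 to 4 and 1.55, 4.14, 3.14 and 3.56 CPM in SPOCK1 libraries 1 to 4. Control library 2 stood high and SPOCK1 library 1 low, and the groups overlapped through SPOCK1 library 2. Its log2 fold change of -0.41 ± 0.24 was the size of that of BHLHE40 with a larger error.

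The proteins of the PER genes carry the delayed repression of the clock. PER3 (chromosome 1, 7784320 to 7845177) had 9.46, 6.92, 8.19 and 7.19 CPM in controls and 4.47, 4.93, 5.71 and 6.19 CPM in SPOCK1 libraries, without overlap. Its log2 fold change, -0.58 ± 0.15, was the lowest of the 10 genes. UTS2, which overlaps 10.7% of its exonic bases on the other strand, had 0 counts in both groups.

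PER1 (chromosome 17, 8140472 to 8156506) had 26.5, 27.6, 23.2 and 24.0 CPM in controls. SPOCK1 libraries 1 to 3 lay lower at 15.1, 19.6 and 17.1 CPM, and SPOCK1 library 4, at 23.8 CPM, fell among the controls. The log2 fold change was -0.42 ± 0.13. PER2 (chromosome 2, 238244038 to 238290102) had 7.03, 5.32, 6.55 and 5.02 CPM in controls and 4.50, 5.50, 5.32 and 6.76 CPM in SPOCK1 libraries, so that 3 of 4 SPOCK1 libraries lay within the control range. Its log2 fold change was -0.12 ± 0.16. The difference between PER3 and PER2 in response was not tested.

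The NR1D genes encode the haem-binding repressors of the second loop. NR1D1 (chromosome 17, 40092787 to 40100725) had 29.7, 39.3, 27.8 and 31.1 CPM in controls and 17, 23.7, 23.9 and 27.7 CPM in SPOCK1 libraries. The groups were apart by the narrow margin between 27.8 and 27.7 CPM, and the log2 fold change was -0.47 ± 0.14. THRA, on the other strand, shares 9.49% of the exonic bases of NR1D1 and had 7978 counts in all controls against 6754 in all SPOCK1 libraries, so its reads cannot be fully separated from those of NR1D1. NR1D2 (chromosome 3, 23945260 to 23980618), the gene with a pair of E-boxes near its second start, had 43.9, 34.8, 40.4 and 32.8 CPM in controls and 33.6, 31.7, 36.7 and 32 CPM in SPOCK1 libraries. Its groups overlapped and its log2 fold change was -0.18 ± 0.10.

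CLOCK is the activator of the loop and the CRY proteins are repressors, and the groups overlapped in all 3 genes. CLOCK (chromosome 4, 55427903 to 55547138) lay between 19.5 and 26.1 CPM in controls and between 15.5 and 23.5 CPM with SPOCK1, a log2 fold change of -0.16 ± 0.13. CRY1 (chromosome 12, 106991364 to 107093829) lay between 13.8 and 17.5 CPM in controls and between 15.6 and 19.3 CPM with SPOCK1. With a log2 fold change of 0.10 ± 0.12 it was the only one of the 10 genes with a positive value. CRY2 (chromosome 11, 45847118 to 45883248) lay between 13.9 and 17.6 CPM in controls and between 14.3 and 18.2 CPM with SPOCK1, at -0.05 ± 0.12. For CLOCK and CRY1 the difference was close to its error, and for CRY2 it was well below it. This does not show that the levels of these 3 genes were the same.

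**Figure D3:**
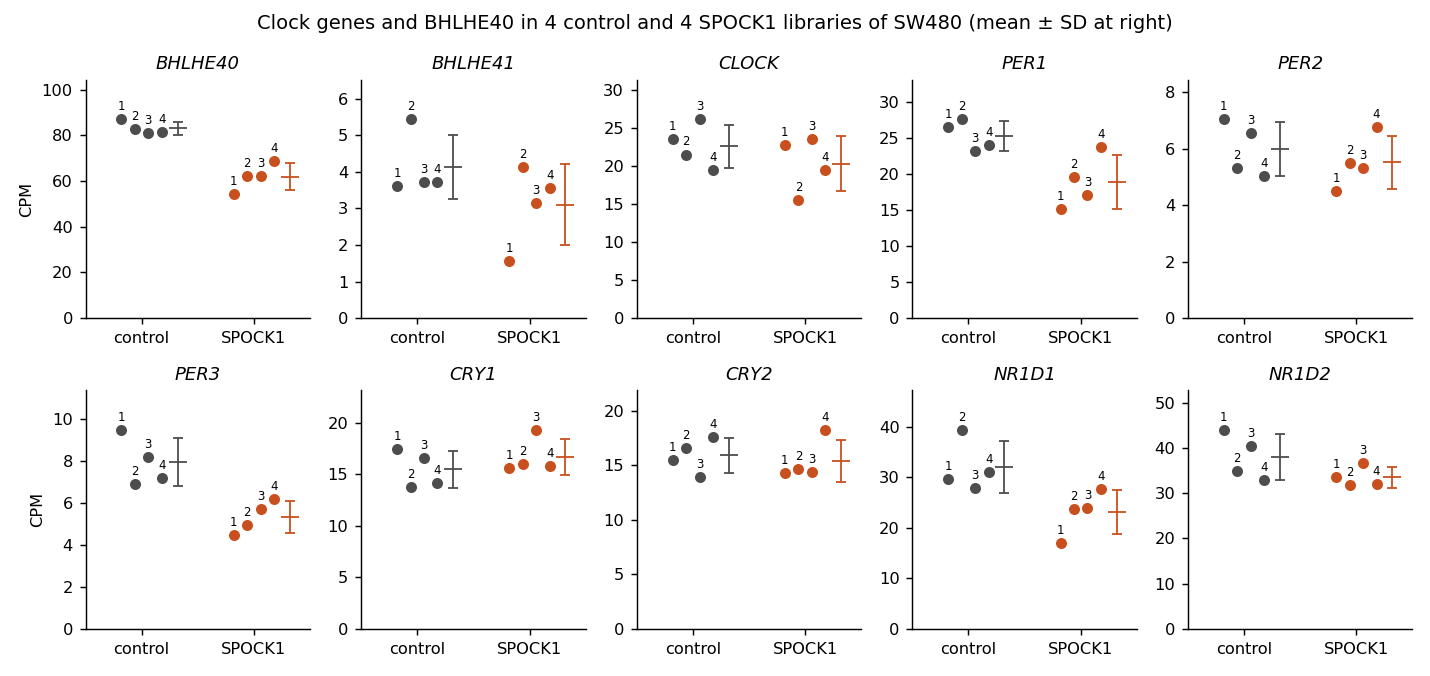
CPM of the 10 genes in each library, numbered 1 to 4 within its group, with the group mean and SD at the right of each set of points. BHLHE40, PER3 and NR1D1 show no overlap between grey control points and orange SPOCK1 points, and SPOCK1 library 1 is the lowest orange point in 8 of 10 panels.

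Over the set, 9 of 10 log2 fold changes were negative and their median was -0.30, while 50.8% of all tested genes were negative and their median was 0.00. BHLHE40 alone of the 10 was called lower at an adjusted p under 0.05 (edgeR quasi-likelihood test over all 15790 genes), 0 were called higher, and 0.798% of all tested genes were called lower and 0.247% higher. The groups did not overlap in 3 of 10 genes, all lower with SPOCK1, against 4.80% of all tested genes. Nothing is read from these counts, since this comparison chose the set. The call of BHLHE40 moved with the libraries used: 0 of the 10 genes were called without control library 1 or 2 or without SPOCK1 library 2 or 3. In those fits 84, 72, 66 and 63 of all tested genes were called lower, in that order, against 126 with all libraries. The log2 fold change of BHLHE40 in those fits lay between -0.43 and -0.40. Without SPOCK1 library 4 both BHLHE40 and PER1 were called, beside 171 genes called lower of 16138 tested. With DESeq2 BHLHE40, PER3 and NR1D1 were called lower, as were 1.80% of all tested genes. With offsets for GC content and length BHLHE40 and PER3 were called, beside 1.81% of all tested genes. With no filter beyond 1 count BHLHE40, PER1, PER3 and NR1D1 were called, beside 1.05% of all tested genes. All of these fits make the comparison that chose the set, so nothing is read from their calls either.

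Across SPOCK1 libraries the low values gathered in library 1. It gave the lowest SPOCK1-group value in 8 of the 10 genes, CLOCK and NR1D2 being the exceptions, and library 4 gave the highest in 6. SPOCK1 itself was at 179.8 CPM in library 1 and at 255.5 CPM in library 4, with 223.2 and 224.5 CPM in libraries 2 and 3. The library with the least SPOCK1 thus gave the lowest value for most of the 10 genes. Libraries 1 and 4 were also the extremes of the SPOCK1 group in the difference between GC-rich and GC-poor genes, at -0.27 and 0.26. The same counts were not made over all tested genes, so they are not read as particular to this set. Without SPOCK1 library 1 the median log2 fold change of the 10 genes was -0.20, and without library 4 it was -0.35.

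Base composition ran beside part of the spread. CLOCK, CRY1 and NR1D2, with transcripts of 37.2% to 38.5% GC, were higher in libraries 1 and 3 than in 2 and 4 in both groups, by 0.28 to 0.32 in controls and 0.13 to 0.41 with SPOCK1 on the log2 scale. PER1, NR1D1 and CRY2, at 57% to 62.7% GC, were lower there in both groups. Their differences were -0.05, -0.28 and -0.22 in controls and -0.43, -0.34 and -0.19 with SPOCK1. Genes of middling GC content differed as well. PER2 (52.4% GC) gave 0.39 in controls and -0.32 with SPOCK1, and PER3 (46.2%) gave 0.32 and -0.13. BHLHE41 (49.6%) gave -0.29 and -0.78, and BHLHE40 (52%) gave 0.03 and -0.17. The part of GC content in these differences was not tested. Set within those library pairs, the mean difference in log2 CPM between SPOCK1 and control for BHLHE40 was -0.53 in libraries 1 and 3 and -0.33 in libraries 2 and 4. PER3 gave -0.80 and -0.35, PER1 -0.62 and -0.25, and NR1D1 -0.51 and -0.45. PER2 changed sign, with -0.47 in libraries 1 and 3 and 0.24 in libraries 2 and 4. With offsets for GC content and length in each library, log2 fold changes were -0.42 ± 0.07 for BHLHE40, -0.56 ± 0.13 for PER3, -0.42 ± 0.11 for NR1D1 and -0.30 ± 0.09 for PER1.

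Among 11808 protein-coding genes with a mean of at least 1 CPM, the 5 whose log2 CPM followed BHLHE40 most closely over the 8 libraries were CEMIP, ERBB3, CDK18, SLC30A3 and ACVR1B, each with a Pearson r of 0.99. Such an r over 2 groups holds the group difference itself. With the group means taken out, r was 0.92 to 0.95 for these genes, and the choice of the highest of many values favours high ones. CEMIP, a hyaluronan-binding protein whose gene shares 2.94% of its exonic bases with MESD, went from 66.8 ± 3.26 to 39.6 ± 7.51 CPM, and ERBB3, a receptor of the EGF receptor family, from 48.1 ± 3.84 to 32.3 ± 3.21 CPM (SD, n = 4 each). ACVR1B, a type I activin receptor, went from 88.2 ± 2.72 to 72.6 ± 5.35 CPM. Among the clock genes set beside BHLHE40, PER3 and PER1 were nearest to it over the 8 libraries, at r of 0.94 and 0.93. By that r they ranked 106 and 156 of the 11808 genes. With the group means out PER1 gave 0.90, PER2 0.80 and PER3 0.77, so PER3 was then below PER2. Over the 8 libraries PER2 gave 0.55. NR1D1 gave 0.87 over the 8 libraries and 0.75 with the group means out. The clock output genes DBP and TEF gave 0.92 and 0.86 over the 8 libraries, but 0.28 and 0.25 with the group means out. CRY1 gave -0.26 over the 8 libraries and 0.19 with the group means out. These are descriptions of 8 libraries that differ in depth and base composition.

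Other genes of the clock loops were compared as a list of 16, of which 14 were expressed highly enough to test. In edgeR's test 0 rose and 0 fell, as in DESeq2, and 1 of 14 was higher at an unadjusted p under 0.05, beside 5.48% of all tested genes. That gene was ARNTL, which encodes BMAL1, the partner of CLOCK and a known target of NR1D1. It had 11.6 ± 0.491 CPM in controls and 14.5 ± 2.48 CPM with SPOCK1 (SD, n = 4 each; log2 fold change 0.32 ± 0.13, adjusted p = 0.288) and is named after its value was seen. The median of the list was -0.01. TIMELESS, a replication fork protein tied to the clock, had 190.4 ± 4.23 and 188.6 ± 3.76 CPM (adjusted p = 0.952). ARNTL2, which encodes the paralog BMAL2, had 109.1 ± 11 and 109.7 ± 16.2 CPM (adjusted p = 0.980). CSNK1D, a casein kinase that phosphorylates PER proteins, had 107.0 ± 4.82 and 101.1 ± 4.95 CPM (adjusted p = 0.669). RORB and FBXL21 had 0 counts in every library.

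**Figure D4:**
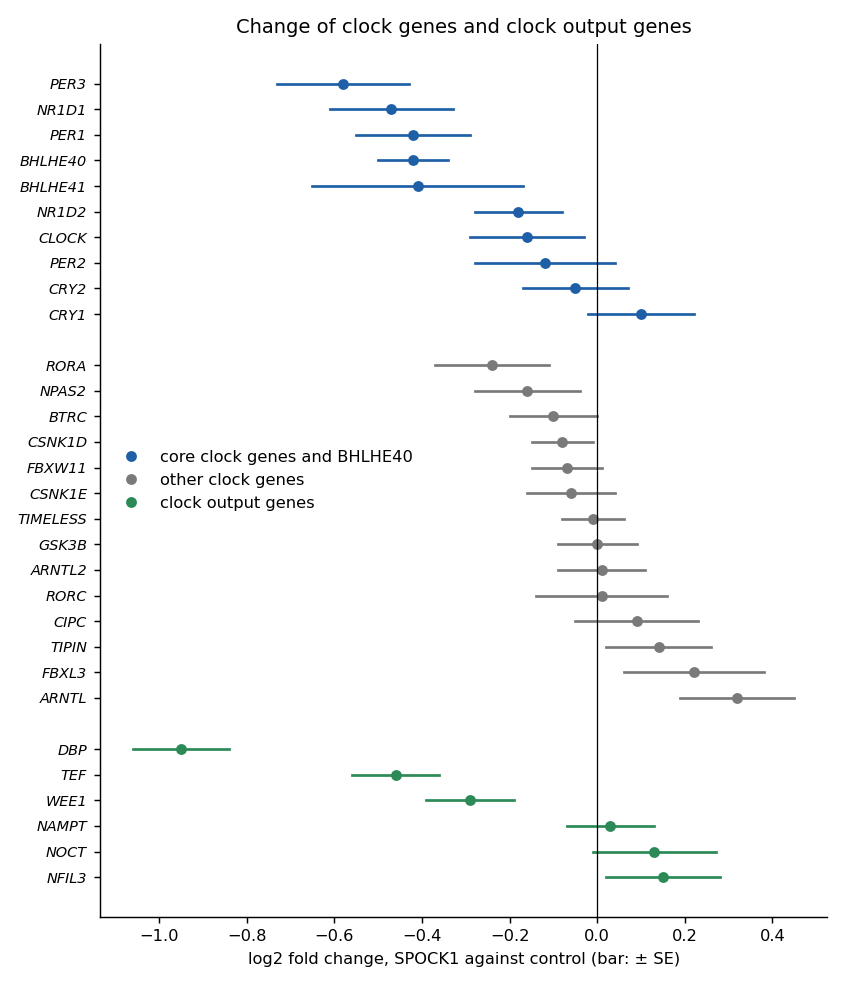
Log2 fold change of SPOCK1 libraries against controls for BHLHE40 and the core clock genes, for other clock genes and for clock output genes, with bars of 1 SE on each side. DBP lies farthest left at -0.95, CRY1 is the rightmost of the first set at 0.10, and ARNTL is the rightmost of all at 0.32.

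Clock output genes, those known to be driven by the clock, were compared as a list of 9, of which 6 could be tested. DBP and TEF fell, 0 rose and 4 did not pass the test, while 0.798% of all tested genes were called lower and 0.247% higher. Both encode PAR bZIP transcription factors, which activate genes through D-boxes. DBP, a direct E-box target of CLOCK and BMAL1, had 23.0, 27.9, 26.5 and 28.9 CPM in controls 1 to 4 and 13.3, 12.9, 12.8 and 16.3 CPM in SPOCK1 libraries 1 to 4. All SPOCK1 libraries lay far below all controls. The fall was 48.1% (log2 fold change -0.95 ± 0.11, adjusted p = 0.000221), and DBP was called under all 13 other settings run. SPHK2 shares 10.1% of the exonic bases of DBP on the other strand and had 3365 counts in all controls and 3174 in all SPOCK1 libraries. Within libraries 1 and 3 the DBP difference in log2 CPM was -0.92, and within libraries 2 and 4 it was -0.97.

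TEF had 39.2, 43.4, 44.0 and 47.2 CPM in controls and 31.1, 29.2, 29.1 and 36.8 CPM in SPOCK1 libraries, again without overlap. It fell by 27.4% (log2 fold change -0.46 ± 0.10, adjusted p = 0.0293), and the difference in log2 CPM was -0.46 within libraries 1 and 3 and -0.47 within libraries 2 and 4. TEF no longer passed when control library 2, 3 or 4 was left out (adjusted p = 0.0842, 0.0662 and 0.0983), nor without SPOCK1 library 2 or 3 (adjusted p = 0.139 and 0.116). The 2 RefSeq starts of TEF each have an E-box, shown here because TEF is the called output gene with that motif in its windows.
TEF first start: gcgcgacagctcCACGTGctgcagctggcg
TEF second start: cacctggccccgCACGTGtctatcttatcc

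These stretches are chr22:41367248-41367277, outside any GENCODE gene, and chr22:41381737-41381766, in an intron of TEF, both on the plus strand, with the E-box 195 and 193 bases before the start. In the RefSeq window of DBP none of the 6 motifs was found, which says only that these letters are not in that window. NFIL3, which represses through the D-box that DBP and TEF use, had 7.07 ± 0.590 CPM in controls and 7.85 ± 0.695 CPM with SPOCK1 (log2 fold change 0.15 ± 0.13, adjusted p = 0.648), and is named after its value was seen. WEE1, a kinase that holds back mitosis, had 45.1 ± 4.52 and 37.0 ± 4.03 CPM (adjusted p = 0.234). NAMPT, an enzyme of NAD salvage, had 108.9 ± 11.9 and 110.8 ± 13.5 CPM (adjusted p = 0.941). HLF, the third PAR bZIP factor, had 21 counts in all controls and 33 in all SPOCK1 libraries. CIART had 0 and 8 counts, and USP2 had 25 and 52. These genes had more counts with SPOCK1 but were too low to be tested.

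**Figure D5:**
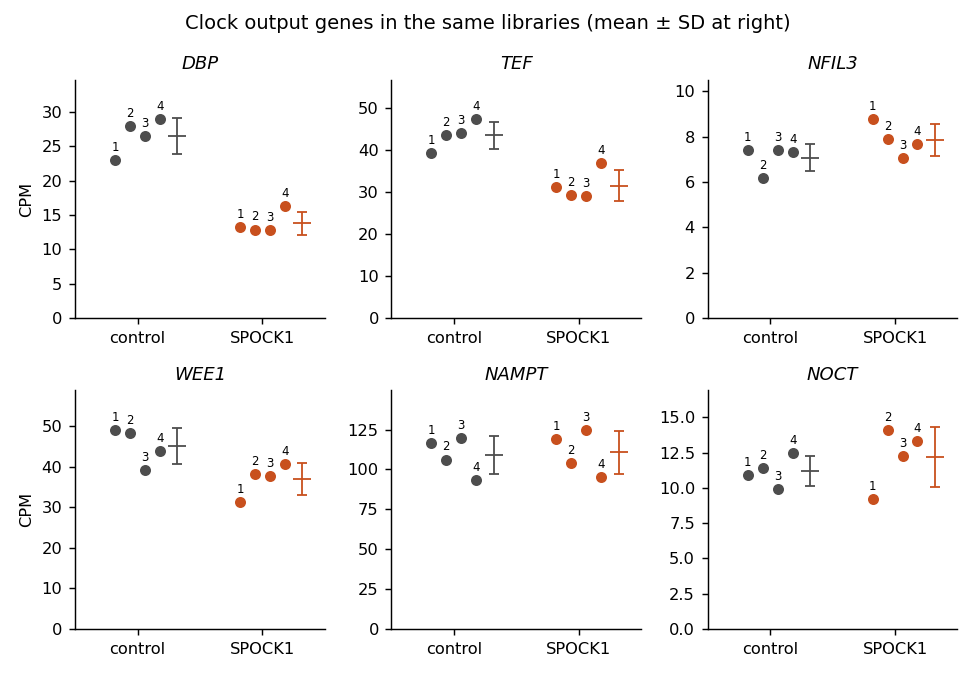
CPM of the 6 tested clock output genes in each library, numbered 1 to 4 within its group, with the group mean and SD at the right. DBP and TEF show no overlap between the groups, while NFIL3, WEE1, NAMPT and NOCT overlap.

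Since BHLHE40 is known to be raised by low oxygen through HIF-1, a list of 14 other hypoxia-inducible genes was set beside it, of which 13 were tested. In edgeR's test 0 passed in either direction, 4 were lower and 0 higher at an unadjusted p under 0.05, and DESeq2 called 2 lower. Of all tested genes 8.17% were lower and 5.48% higher at an unadjusted p under 0.05, and DESeq2 called 1.80% lower. The median log2 fold change of the list was -0.15, and 10 of 13 values were negative. SLC2A1, the glucose transporter GLUT1, had 1571.5 ± 107.4 CPM in controls and 1415.5 ± 171.4 CPM with SPOCK1 (adjusted p = 0.477). NDRG1 had 213.7 ± 18.2 and 193.4 ± 14.8 CPM (adjusted p = 0.465), and KDM3A, a histone demethylase, had 37.3 ± 3.86 and 34.0 ± 2.84 CPM (adjusted p = 0.593). DDIT4, an inhibitor of mTORC1, and EGLN3, an oxygen-sensing hydroxylase, were the genes DESeq2 called, and are named after their values were seen. Their edgeR log2 fold changes were -0.46 ± 0.12 and -0.38 ± 0.10 (adjusted p = 0.0747 and 0.0870). The remaining genes lower at an unadjusted p under 0.05 were CA9 and VEGFA, also named after their values were seen. CA9, at 0.992 ± 0.256 CPM in controls, gave -1.10 ± 0.38 and VEGFA -0.24 ± 0.09 (edgeR, adjusted p = 0.212 and 0.281). DDIT4, EGLN3 and VEGFA had groups without overlap, lower with SPOCK1, as had 4.80% of all tested genes. DDIT4-AS1 overlaps 41.2% of the exonic bases of DDIT4 and had 0 counts in both groups. ARHGEF39, on the other strand, shares 38.5% of the exonic bases of CA9. It had 4845 counts in all controls and 4099 in all SPOCK1 libraries, against 153 and 70 for CA9. The reads of CA9 cannot be fully separated from those of ARHGEF39.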

How the data were processed

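RNA of 8 SW480 libraries was sequenced, 4 per group by their titles. The authors deposited raw read counts per gene. The submitters' processing notes name featureCounts 1.5.0-p3, HISAT2 2.0.5 and CASAVA. The sources used here give no build, strand setting or treatment of multi-mapped reads. Gene start, end and strand equal those of GENCODE release 29 (GRCh38) for all 58735 genes, and the gene length used for RPKM, deposited beside the counts, is another column of that table.

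The groups were compared in edgeR 4.0.16 (R 4.3.3): filterByExpr (minimum count 10, minimum total 15), TMM factors, quasi-likelihood F test without covariates, Benjamini-Hochberg over 15790 genes, called under 0.05. The SE was derived from the F statistic. CPM used TMM-scaled library sizes, and log2 CPM a prior count of 2. Offsets were splines of 5 degrees of freedom on GC content and length. Other settings were DESeq2 1.42.0, RLE factors, no filter beyond 1 count, a block for the replicate number, leaving out each library, and TPM for the order of levels. The fits were tested on simulated data. At an adjusted p under 0.05, 8.54% of edgeR calls and 13.3% of DESeq2 calls were false there. Each fit recovered 65.7% of genes changed 1.5-fold, the smallest change simulated and larger than that of BHLHE40 or TEF. The simulated counts were drawn independently, without the GC trends of the real libraries. These shares may therefore not hold for the real data.

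Genes and lists were chosen with earlier results of these data known. The text names the 10 genes, list genes past the threshold, the 3 most abundant of each list and the 5 genes most like BHLHE40. ARNTL, NFIL3, NOCT, DDIT4, EGLN3, CA9, VEGFA, CSNK1E, GSK3B, the cell type markers and the untested list genes fall outside that rule and were chosen after their values were seen. Promoter sequences are from RefSeq (GRCh38.p14).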

Additional observations from a re-analysis of the deposited data

Results flagged for a closer look

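In 86 sets of 4 libraries, those of the 10 genes and of the tested list genes, 8 single libraries lay far from the other libraries of their group by Dixon's criterion for 4 samples, and chance gives about 1 in 20. Among the 10 genes BHLHE41 was at 5.43 CPM in control library 2 against 3.61 to 3.73 in the other controls. CRY1 was at 19.3 CPM in SPOCK1 library 3 against 15.6 to 16.0 in the others of its group. CRY2 was at 18.2 CPM in SPOCK1 library 4 against 14.3 to 14.6. Of the clock output genes, DBP was at 16.3 CPM in SPOCK1 library 4 against 12.8 to 13.3, and NFIL3 at 6.19 CPM in control library 2 against 7.32 to 7.39. Of the kinases, CSNK1E was at 47.6 CPM in control library 4 against 44.8 to 45.0, and GSK3B at 46.9 CPM in SPOCK1 library 1 against 56.8 to 58.6. DDIT4 was at 21.5 CPM in control library 1 against 25.3 to 26.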

How the results depend on the processing

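Over all genes 39 were called higher and 126 lower, a share of 23.6% higher. DESeq2 called 113 and 285, no filter beyond 1 count 126 and 289, and offsets for GC content and length 312 and 286, a share of 52.2% higher. Leaving out 1 library gave 24 to 66 higher and 63 to 171 lower. With the replicate number as a block 31 were higher and 84 lower and 0 of the 10 genes were called. Same-numbered libraries did not deviate together (r of -0.07 to 0.08), and 1 of 4 SPOCK1 libraries correlated best with its own number. SPOCK1 libraries 1 to 4 correlated best with control libraries 3, 2, 1 and 2. Each match lay on the same side of the split of libraries 1 and 3 against 2 and 4, with an r of at most 0.16. Clock output genes called lower numbered 1 to 2 without 1 library. Hypoxia-inducible genes called lower numbered 2 with DESeq2 or GC and length offsets, 1 with no filter or the replicate block, and 0 to 1 without 1 library. The other clock genes stayed at 0 calls under every alternative run. The median log2 fold change of the 10 genes, -0.30, was -0.49 in libraries 1 and 3 of both groups, an alternative chosen after seeing the data, and -0.23 in libraries 2 and 4. It lay between -0.35 and -0.20 without 1 library. Over 13 other settings (5 other fits and 8 fits without a library), 8 of the 9 negative values stayed negative, and CRY2 lay between -0.14 and 0.03. The causes were not tested. BHLHE41, at 1.55 to 5.43 CPM, had the largest SE of the 10 genes.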
